A study of Mus musculus with 7 samples.

Results

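The Ifi200 genes are a family of interferon-inducible genes that lie side by side on mouse chromosome 1. Of the 6 members named by the rule (Ifi203, Ifi204, Ifi205, Mnda, Aim2 and Pyhin1), 5 had rows under their gene name among the non-control spots of the array, with 11 probes, out of 34797 gene names and 55681 probes in all. All 11 probes were well above background on at least 3 of the 7 arrays, the minimum for testing, which left 18256 genes and 25608 probes. Ifi205 had no row of its own name. The Mnda probe lists accessions of the genes now called Ifi211 and Ifi205, so the transcripts of these genes cannot be told apart by it. The probes named Pyhin1 belong to the gene that RefSeq now calls Ifi209.

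Expression was measured in lymph node CD8 T cells on 7 single-colour Agilent arrays. The 4 Lck-off samples came from OT-1het, Rag-/-, Lck-/- mice, in which doxycycline had been left out of the diet for 7 days to switch off a knocked-in Lck. The 3 WT samples came from OT-1het, Rag-/- mice with Lck intact; their diet is not given. Both groups thus had the transgenic OT-1 T cell receptor, which recognises an ovalbumin peptide, and no Rag, and their cells were sorted fresh as CD8b+ and CD44low. The design calls the samples biological replicates, but nothing says that each came from its own animal, so p-values measure the spread between these samples. The labels name no strain for either group, and no Lck-/- mice still given doxycycline were analysed here. Genotype, drug withdrawal and any strain difference at the locus therefore cannot be told apart.

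Proteins of the Ifi200 family, also called PYHIN or HIN-200 proteins, mostly combine a pyrin domain, which binds other pyrin domains, with 1 or more HIN domains, which bind DNA. Aim2 senses double-stranded DNA in the cytosol and recruits the adaptor Pycard, which activates caspase-1 in an inflammasome. Other members are mainly nuclear and have been linked to transcription, cell growth and the sensing of viral DNA. The genes are known targets of interferon, whose signal reaches them through a promoter element called ISRE.

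Levels are log2 processed intensities relative to each array's 75th percentile, so 0 is that percentile and 1 unit is a doubling. Levels of different probes are not comparable. The 75th percentile was 212 to 243 intensity units in Lck-off and 208 to 235 in WT, each array had 42.5% to 48.7% of its probes well above background, and no spot was saturated. Lck itself read 8.52, 8.83, 8.60 and 8.55 in Lck-off and 8.99, 9.02 and 8.98 in WT. The difference was -0.37 with an adjusted p of 0.0494 by limma. This call held in 1 of 7 fits with 1 array left out, with adjusted p up to 0.154. Nothing says whether the Lck probe lies in the altered part of the gene, so it does not check the labels. All 15 CD8 T cell markers were well above background on all 7 arrays.

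The 30-base promoter stretches of 3 members that hold an ISRE core are shown because they carry the element through which the family is known to respond to interferon. The capitals mark the match, GAAA, then 2 bases of any kind, then GAAA, sought on both strands in RefSeq promoters of 300 bases around the start site (GRCm38.p6). All 3 lie on the minus strand of chromosome 1, at chr1:173942508-173942537 for Ifi203, chr1:173913064-173913093 for Mnda (RefSeq Ifi211) and chr1:174031870-174031899 for Ifi205.
Ifi203: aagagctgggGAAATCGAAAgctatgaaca
Mnda: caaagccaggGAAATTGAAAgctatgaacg
Ifi205: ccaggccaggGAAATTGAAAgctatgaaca
The Ifi203 and Mnda stretches are identical at 24 of 30 bases. RefSeq promoters were found for 5 of the 6 members, 6 promoters in all, and 3 of these 5 genes had a match; Ifi203 had it in 1 of its promoters. The Aim2 and Pyhin1 promoters had none in this window. Among all 32851 mouse promoters, 3.44% hold the letters. Of the 7 other family genes with a promoter, 6 had a match. The letters TTCNNNGAA, the core of another interferon element called GAS, were in no member promoter, in 1 other family gene (Ifi202b, which had no ISRE core to overlap) and in 8.3% of all promoters. A match describes the sequence and shows no binding.

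Because family genes resemble each other, their probes were compared with one another. Among the 25 probes of 60 bases for members and other family genes, no run longer than 11 bases was shared between probes of different genes. The probes were not compared with whole transcripts of the other genes, so what else each can bind was not tested. These 4 member probes are shown because the comparison of probes within a gene turns on them, with the longest run shared with another family gene's probe in capitals; positions are mm9, per the file headers.
Ifi204, A_55_P1975560 (chr1:175677647-175677706, minus strand): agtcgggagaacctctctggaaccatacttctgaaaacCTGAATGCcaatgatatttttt
Ifi204, A_55_P2066578 (chr1:175677552-175677611, minus strand): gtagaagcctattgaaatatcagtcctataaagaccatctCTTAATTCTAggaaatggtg
Ifi203, A_55_P1966731 (chr1:175854206-175854265, minus strand): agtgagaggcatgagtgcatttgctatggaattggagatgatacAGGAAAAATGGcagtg
Pyhin1, A_55_P2036357 (chr1:175572633-175572691, plus strand): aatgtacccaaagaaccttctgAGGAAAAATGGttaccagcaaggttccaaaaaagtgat
The Ifi203 and Pyhin1 probes share 11 bases. Which exon or untranslated region each probe lies in is not given by the file headers.

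Most of the family was higher in Lck-off cells. With each gene read from its brightest tested probe, 4 members were well above background in both groups, and 3 of these, Ifi204, Pyhin1 and Ifi203, rose in Lck-off (limma with Benjamini-Hochberg adjustment over all genes, adjusted p under 0.05). Over all genes 8.39% were called and 3.81% called higher. Aim2 did not pass the test. Mnda passed the filter through Lck-off arrays alone, so that it had to differ, and its call adds nothing to the count. In the same 3 genes every Lck-off array lay above every WT array, which held for 9.8% of all genes. In bulk RNA, more cells of a type and more RNA per cell cannot be told apart. The median difference of the 4 genes was 0.90, and 0.91 with Mnda, while the median of all genes was -0.01. Of the 9 member probes above background in both groups 6 rose, against 7.33% of all probes called and 3.46% called higher. In 8 of these 9 every Lck-off array lay above every WT array, which held for 9.59% of all probes. The other probes, of Mnda and Ifi204, were above background on no WT array.

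**Figure D1:**
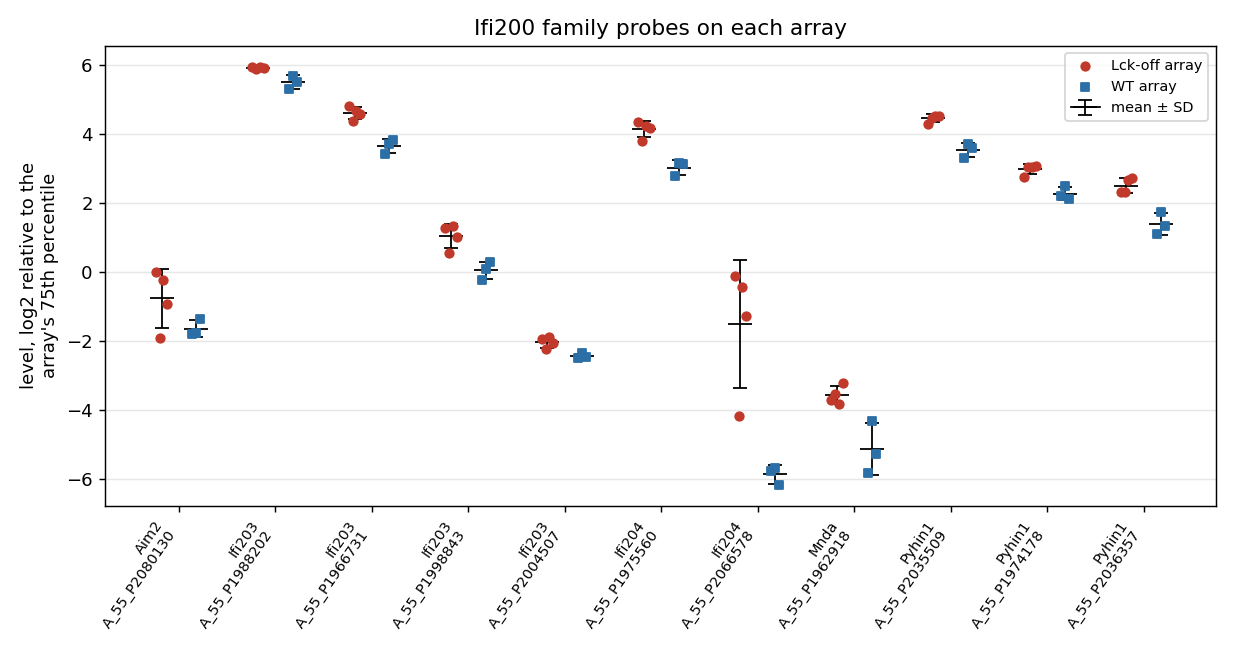
Level of each of the 11 member probes on each array (log2 relative to the array's 75th percentile), with Lck-off arrays as circles, WT arrays as squares and the mean ± SD as bars. Of the 9 probes above background in both groups, 8 have the groups apart, against 9.59% of all probes, and the Aim2 probe has them overlap. The Mnda probe and the Ifi204 probe A_55_P2066578 passed the filter through Lck-off arrays alone, so that their groups had to differ. A_55_P2066578 spreads from -4.18 to -0.12 over the Lck-off arrays.

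Ifi204 encodes a protein with 2 HIN domains that has been linked to STING-dependent sensing of DNA. Its brighter probe, A_55_P1975560, read 4.33, 3.80, 4.23 and 4.17 in Lck-off replicates 1 to 4 and 2.76, 3.15 and 3.14 in WT replicates 1 to 3. The lowest Lck-off array, replicate 2, stood above the highest WT array. The difference was 1.12 ± 0.16 (SE), a 2.17-fold level, with an adjusted p of 0.00549 in the gene fit. It stayed past the threshold with any 1 array left out and was 0.88 within slide row 1 and 1.30 within row 2, with adjusted p of 0.275 and 0.113 in these smaller fits.

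The second Ifi204 probe gave a wider picture. A_55_P2066578, designed on the transcript BC010546, read -0.12, -4.18, -0.45 and -1.29 in Lck-off and -5.76, -5.67 and -6.17 in WT. It was well above background on 3 of 4 Lck-off arrays and on none of the WT arrays, and Lck-off replicate 2 sat closer to WT than to the other Lck-off arrays. It passed the filter through Lck-off arrays alone. On the processed signal the bound was 16.7-fold higher in Lck-off, which is no strict lower limit. Measured means were -1.51 ± 1.85 in Lck-off and -5.87 ± 0.27 in WT (SD), with an adjusted p of 0.0325 in the limma probe fit. With normexp background correction, which adds an offset of 50 and so shrinks differences of dim probes, the difference was 1.40 in place of 4.36, so the size depends on the background correction. The SD of this probe over the Lck-off arrays was larger than that of 99.8% of tested probes. Without any one of 6 arrays the call was lost, with adjusted p up to 0.112; without Lck-off replicate 2 it held, at a difference of 5.25 and an adjusted p of 0.00187.

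Pyhin1 encodes a nuclear member of the family. Its brightest probe, A_55_P2035509 (chr1:175576265-175576324), read 4.28, 4.47, 4.51 and 4.53 in Lck-off and 3.31, 3.71 and 3.58 in WT. All Lck-off arrays lay above all WT arrays. The difference was 0.91 ± 0.12 (SE), a 1.88-fold level, with an adjusted p of 0.00376. The other probes gave 1.12 (A_55_P2036357, adjusted p = 0.0105) and 0.71 (A_55_P1974178, adjusted p = 0.0164) in the limma probe fit. All 3 therefore rose, and the brightest kept its call with any 1 array left out. Within slide rows 1 and 2 its difference was 0.91 and 0.89.

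Mnda, a nuclear family protein named after a human antigen of myeloid cells, was faint. Its single probe (chr1:175826600-175826659) read -3.71, -3.55, -3.83 and -3.23 in Lck-off and -5.82, -4.33 and -5.27 in WT. The groups did not overlap, but the probe was well above background on 3 of 4 Lck-off arrays and on no WT array. On the processed signal the bound was 2.69-fold higher in Lck-off. It is no strict lower limit, as 1 of the Lck-off arrays was itself not well above background. The fitted difference was 1.56 with an adjusted p of 0.0318 by limma, but the probe passed the filter through Lck-off arrays alone. Leaving out any 1 array but WT replicate 2 ended the call, with adjusted p up to 0.11. The difference was 0.16 with normexp background correction and 0.17 in the authors' deposited values, with adjusted p of 0.467 and 0.233 by limma. The bound thus applies to the processed signal only.

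Ifi203, another nuclear member, had the smallest gene difference of the 5. A_55_P1988202 (chr1:175850536-175850595) read 5.93, 5.87, 5.93 and 5.92 in Lck-off and 5.30, 5.69 and 5.51 in WT. The Lck-off arrays were nearly equal, and all lay above WT. Their SD was 0.03, and 1.21% of tested probes had a smaller one. The difference was 0.41 ± 0.10 (SE), a 1.33-fold level, with an adjusted p of 0.047 in the gene fit and 0.0552 in the probe fit. Leaving out any 1 array but WT replicate 2 ended the gene call, with adjusted p up to 0.121.

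The 4 Ifi203 probes fell into unequal differences. A_55_P1998843 gave 1.00 and A_55_P1966731 gave 0.95, with adjusted p of 0.0334 and 0.00664 in the limma probe fit. The call of A_55_P1998843 held in 1 of 7 fits with 1 array left out, with adjusted p up to 0.103. A_55_P1966731, which kept its call in all 7, read 4.80, 4.36, 4.66 and 4.58 in Lck-off and 3.43, 3.70 and 3.81 in WT, with no overlap. A_55_P2004507, the faintest, gave 0.40 with an adjusted p of 0.0644. Over the 10 pairs of probes of 1 member gene, the exact two-sided permutation test of the difference between probes gave no adjusted p under 0.05; 1 of the pairs includes the Ifi204 probe that has only a bound in WT. The smallest adjusted p was 0.114, and 2 pairs had the smallest unadjusted p that 35 splits allow, 0.0286. Those pairs set A_55_P1966731 against the brightest and the faintest Ifi203 probe, with differences of -0.54 (brightest minus it) and 0.55 (it minus faintest).

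Aim2, the cytosolic DNA sensor, did not pass the test, and its Lck-off arrays spread widely. Its probe (A_55_P2080130, chr1:175396036-175396095) read -0.01, -1.91, -0.24 and -0.92 in Lck-off and -1.81, -1.77 and -1.37 in WT. Lck-off replicates 1, 3 and 4 were above WT, and replicate 2 was below every WT array. The difference was 0.88 ± 0.43 (SE; 95% interval -0.14 to 1.90) with an adjusted p of 0.305. Without Lck-off replicate 2 it was 1.26 with an adjusted p of 0.0408. Within slide row 1, which holds that replicate, the difference was 0.30, and within row 2 it was 1.32.

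The order of the Lck-off arrays differed between genes of the cluster. Ifi202b, a family gene whose product lacks a pyrin domain, read -1.69, -5.78, -3.71 and -4.26 in Lck-off and -5.52, -5.50 and -5.92 in WT (A_55_P2032167), with replicate 1 far above and replicate 2 the lowest. It was well above background on 2 of 4 Lck-off arrays and on no WT array, so it was not tested. The bound was 3.28-fold, and 2.55-fold by its other probe, again no strict lower limit. In Pydc4 the probes disagreed on the same array: A_52_P483799 read 0.57, -0.86, 0.45 and 0.04 in Lck-off and -1.97, -0.63 and -1.88 in WT, with replicate 2 the lowest of its group. A_55_P2039230 read 2.49, 3.65, 3.16 and 3.39 in Lck-off and 2.04, 2.39 and 2.29 in WT, with replicate 2 the highest and replicate 1 the lowest. In the interferon list the summed level of replicate 2, 2255 times the 75th percentile, lay between those of the other Lck-off arrays, 2026 to 2393.

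**Figure D2:**
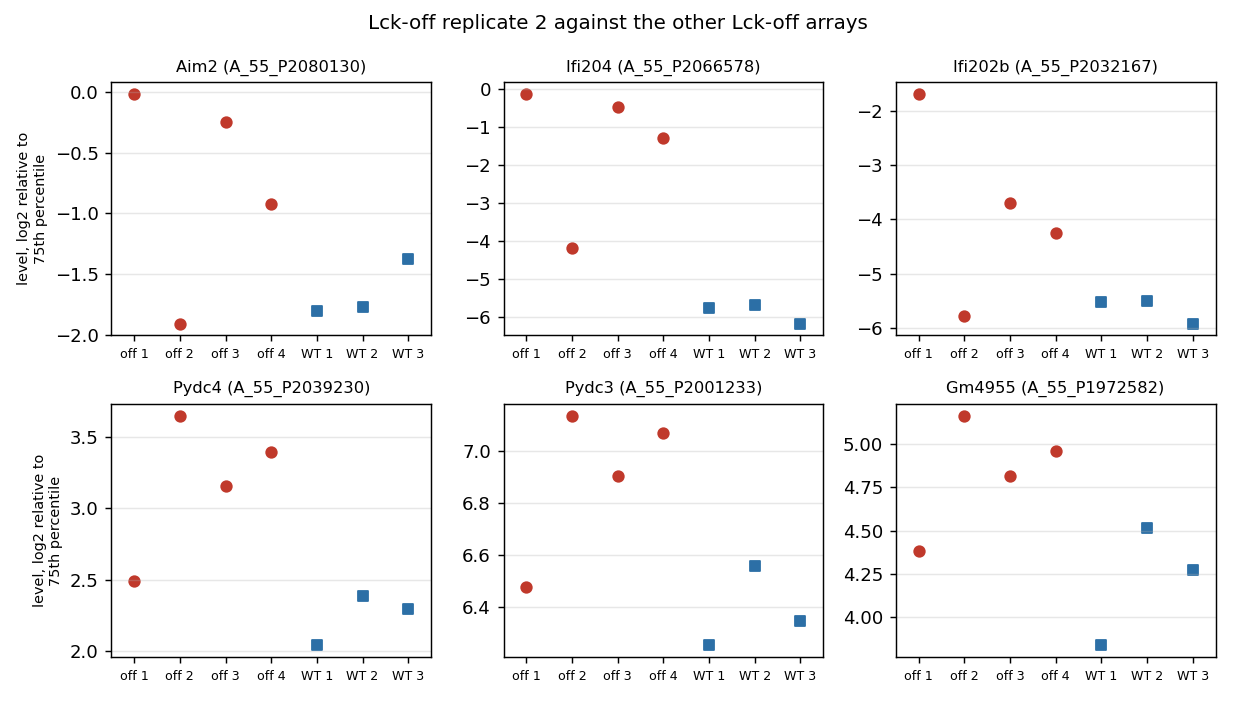
Level of 6 family probes on each array (log2 relative to the 75th percentile; each panel has its own axis), with Lck-off arrays as circles to the left of WT arrays as squares. Lck-off replicate 2 is the lowest Lck-off array in the upper panels (Aim2 -1.91, Ifi204 -4.18, Ifi202b -5.78) and the highest in the lower ones (Pydc4 3.65, Pydc3 7.14, Gm4955 5.16).

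Of the family genes outside the rule, 7 were on the array and 5 were tested. Of these 5, 2 rose, against 3.81% called higher over all genes. The median difference of the 5 was 0.67. BC094916, now Ifi214, read 4.21, 3.62, 4.33 and 4.11 in Lck-off and 2.16, 2.71 and 2.48 in WT, a difference of 1.61 ± 0.20 (SE) with an adjusted p of 0.0034. The groups did not overlap. Mndal rose by 0.52 to 5.41 ± 0.14 in Lck-off, against 4.89 ± 0.12 in WT (SD), with an adjusted p of 0.0226 by limma. Its call held in 2 of 7 fits with 1 array left out, with adjusted p up to 0.0725.

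The other 3 tested genes were higher on average but missed the threshold. Pydc3, now Ifi208, had a difference of 0.51 (adjusted p = 0.131 by limma), Gm4955, now Ifi206, 0.67 (0.141) and Pydc4, now Ifi213, 0.94 (0.0802). Pydc3 read 6.48, 7.14, 6.90 and 7.07 in Lck-off and 6.25, 6.56 and 6.35 in WT, so that Lck-off replicate 1 fell inside the WT range. Without that replicate Pydc3 had a difference of 0.65 (adjusted p = 0.0205) and Pydc4 of 1.16 (0.00883). One Pydc3 probe, A_55_P2036627, had no overlap between groups and passed in the probe fit, with a difference of 0.96 and an adjusted p of 0.0362. AI607873, now Ifi207, had no probe of its own name well above background on any array. Some probes of other names between its probes, on the same strand, were above background on all arrays, and others were not. Among the former, A_30_P01031526 averaged 3.62 in Lck-off and 2.65 in WT.

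The probes of the family span chr1:175396036-175893982 (mm9), 497.9 kb. Inside this span, all 9 tested names outside the family lists rose, against 3.81% called higher over all genes. The median difference of the 9 was 0.97. Most of the 9 are named after their region and strand. Of those on the minus strand, 11 of 11 tested probes rose, with differences of 0.86 to 1.34; of those on the plus strand, 4 of 6 rose. One minus-strand probe, A_30_P01019537, which was not tested, has the same position as an AI607873 probe. Tested minus-strand probes from 175653734 to 175662532 lie between the AI607873 probes, on the same strand. Whether they read the transcript of that gene was not tested. For the others, overlap with family transcripts and a separate origin cannot be told apart. The predicted gene Gm16340 read 3.40, 3.00, 3.45 and 3.44 in Lck-off and 2.28, 2.59 and 2.47 in WT, with no overlap, a difference of 0.88 and an adjusted p of 0.00864.

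Outside the span but within 2 Mb, 30 genes were tested, with none called higher and 3 called lower. Over all 18256 genes, 3.81% were called higher and 836 genes lower, so none higher among 30 is near that share. The unadjusted p of limma was under 0.05 for 4 genes with a positive difference. The median difference of the 30 genes was -0.05. The lower ones were an unnamed probe, A_55_P2087172 (-1.07, adjusted p = 0.0014), the phosphatase gene Dusp23 (-0.87, 0.00427) and the exonuclease gene Exo1 (-0.50, 0.0494). Dusp23 averaged -0.86 ± 0.20 in Lck-off and 0.01 ± 0.04 in WT (SD), with no overlap. The nearest tested genes were Gm2710, 796.9 kb to the left of the span (0.38, adjusted p = 0.0882), and Fmn2, 858 kb to the right (-0.10, 0.665). Between these and the family no gene was tested, so the edges of the region with higher levels are not resolved.

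**Figure D3:**
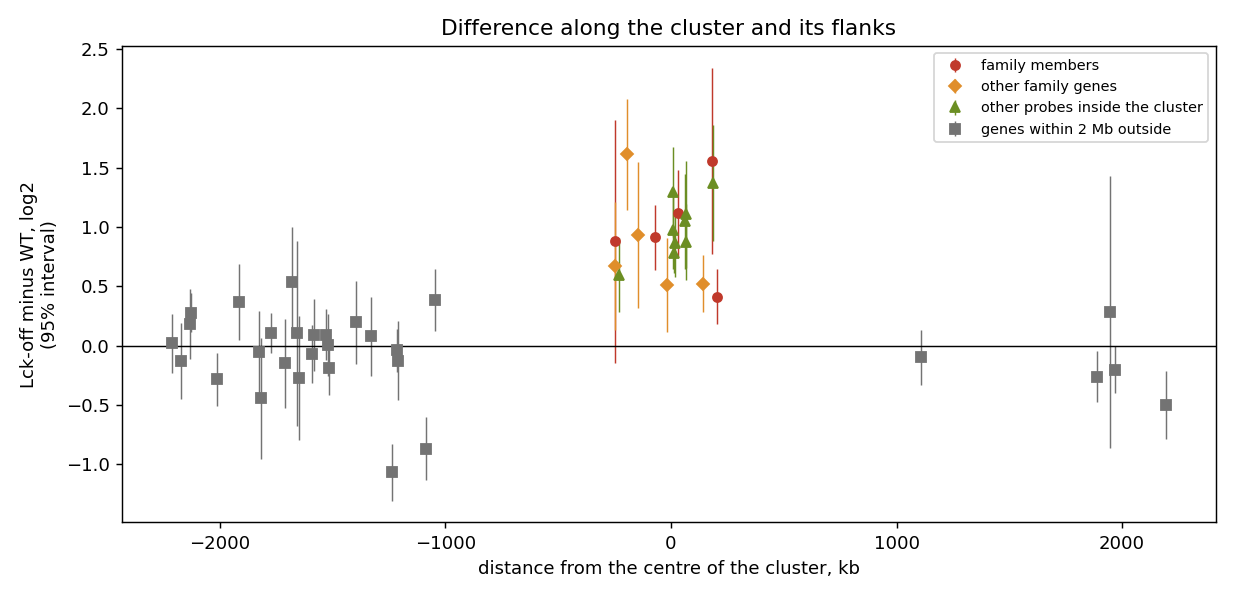
Lck-off minus WT difference (log2) of each tested gene against its distance from the centre of the cluster (kb), with 95% intervals. Family members, other family genes and other probes inside the cluster all lie above 0, while genes within 2 Mb outside scatter around 0 with a median of -0.05.

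Interferon-responsive genes elsewhere in the genome were higher too. Of 47 tested genes of the interferon list, 44 rose and none fell, against 3.81% called higher over all genes. The 44 include Ifi44, which was above background on no WT array and passed the filter through Lck-off arrays alone. The list's median difference was 1.58, a 2.98-fold level. Mx1, an antiviral GTPase, averaged 4.47 ± 0.26 in Lck-off and -0.05 ± 0.52 in WT (SD; adjusted p = 0.000306). Its relative Mx2 differed by 3.11, Phf11 by 1.98 and the exonuclease Isg20 by 2.15. Irf7, which amplifies the interferon response, differed by 1.88. By their brightest probes, the 4 members above background in both groups had differences of 0.41 to 1.12, beside the interferon list's median of 1.58. Mnda, which passed the filter through Lck-off arrays alone, had 1.56. How much of the family's difference goes with interferon and how much with the chromosome 1 locus was not tested.

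**Figure D4:**
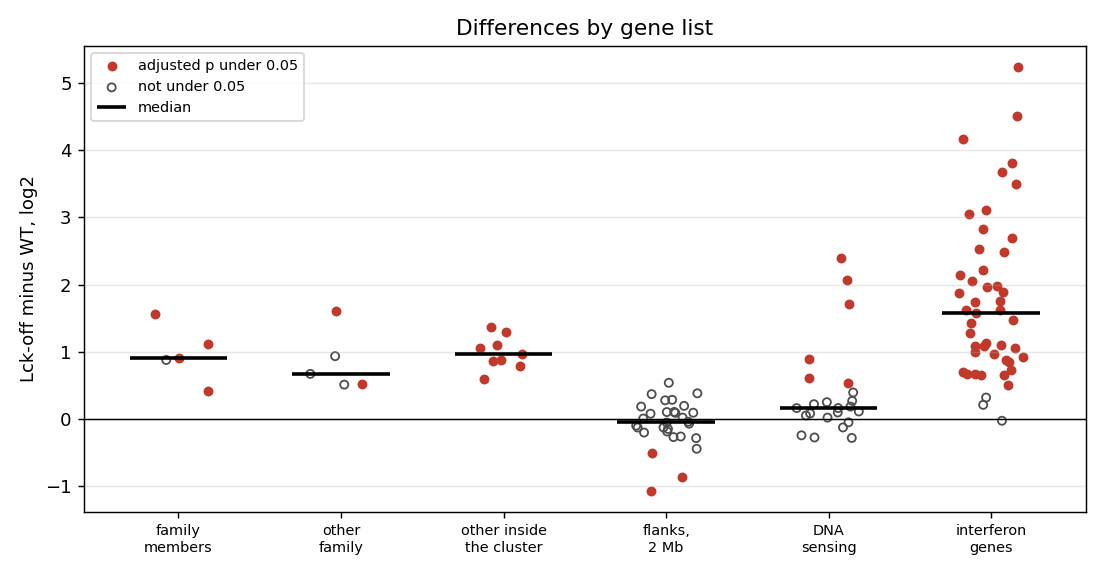
Lck-off minus WT difference (log2) of each tested gene by list, with filled points for adjusted p under 0.05, open points for the rest and a bar at the median. The family members have a median of 0.91 and the other family genes of 0.67, between the flanks at -0.05 and the interferon genes at 1.58.

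Genes that act with the family in DNA sensing changed in part. Of 23 tested, 6 rose and none fell, against 3.81% called higher over all genes, with a median difference of 0.16 in the list. The inflammasome protease Casp1 read 0.21, 0.48, 1.11 and 1.05 in Lck-off and -1.63, -1.68 and -1.75 in WT, a difference of 2.40 ± 0.23 (SE) with an adjusted p of 0.00135. The groups were well apart. Casp4, a related protease, differed by 2.07, the inflammasome sensor Nlrp1a by 1.70, and the DNA exonuclease Trex1 by 0.90. Trim56 and Samhd1, which limits the supply of nucleotides, also rose, by 0.54 and 0.62.

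Pycard and Tmem173, partners of Aim2 and Ifi204, did not pass in the main setting. Pycard, the adaptor of Aim2, read 5.56, 5.50, 5.62 and 5.54 in Lck-off and 5.77, 5.82 and 5.81 in WT, a difference of -0.24 with an adjusted p of 0.0673. All Lck-off arrays lay below WT, and the adjusted p was 0.0399 with quantile normalization and 0.0223 with trended and robust moderation. Tmem173, which encodes STING, differed by 0.25 with an adjusted p of 0.138, or 0.0264 in the authors' deposited values and 0.0493 with trended and robust moderation. Mb21d1, which encodes the DNA sensor cGAS, had no row under that name.

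Genes whose profiles over the 7 arrays lay closest to each member were found by the root mean square difference of mean-centred log2 levels. For Ifi203 these were Trim25 (0.0368), Trim21 and Fbxw7. For Ifi204 the closest were the minus-strand probes of 2 regions inside the cluster, with 0.058 and 0.082, and then Slfn2 on chromosome 11 (0.14). For Pyhin1 they were Gm13212 (0.069), Trafd1 and Epsti1, and for Mnda Ccrl2 (0.201), Dhx58 and LOC236220. Mnda was above background on no WT array and passed the filter through Lck-off arrays alone, so its profile rests partly on levels near background. Likeness over 7 arrays mostly reflects the size of the difference between groups and the order of the arrays within them.

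Ifi200 genes are also expressed in myeloid cells, so markers of other cells were set beside them. Of 21 myeloid markers 11 were tested, and 1 (C1qb, 0.59, adjusted p = 0.0469 by limma) rose, against 3.81% called higher over all genes. All 11 had a positive difference, as did 8822 of all 18256 genes. The median of the 4 members above background in both groups was 0.90, beside 0.64 for these 11 markers. Their summed level was 242 to 281.3 in Lck-off and 218 to 268.1 in WT, in multiples of the 75th percentile, most of it from Csf3r, which averaged 7.69 in Lck-off and 7.59 in WT. Fainter markers differed more without passing the test, with C1qc at 1.75 (adjusted p = 0.0932 by limma), Mpeg1 at 1.49 (0.0865), C1qa at 1.38 (0.0734) and Ly86 at 1.31 (0.173). No array had Sfpi1, Ccr2, Clec4e or Fcgr3 well above background, and Lyz2 and Cd14 were so on 1. Of 16 dendritic markers 10 were tested and 1 (Tcf4) rose, against the same 3.81% of all genes, with a median difference of 0.77. Their sums were 255.6 to 316.1 in Lck-off and 245.5 to 266.9 in WT. Most of the sum came from Siglech (8.10 in Lck-off and 8.00 in WT). Clec9a, Cd209a and Clec10a were above background on no array. H2-Ab1, H2-Eb1 and Cd74, genes of class II presentation, differed by 1.40, 1.26 and 1.12 without passing (limma adjusted p of 0.223, 0.228 and 0.265). The highest Lck-off level of H2-Ab1, 2.25, was on replicate 2, the array with the lowest Aim2 level.

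None of 5 tested B cell markers passed (sums 12.45 to 15.3 in Lck-off, 12.76 to 14.8 in WT), and Ms4a1, Pax5 and Ebf1 were above background on no array. None of 3 tested CD4 and regulatory T cell markers passed (17.68 to 20.91 in Lck-off, 16.57 to 17.42 in WT), with Ctla4 and Cd40lg above background on no array. The 2 tested NK cell markers were Gzma, which rose by 2.77, and Prf1, which differed by 0.20 (adjusted p = 0.201 by limma). The sums of these 2 genes were 27.52 to 34.87 in Lck-off and 15.65 to 16.73 in WT. Ncr1 was above background on 2 arrays and Klra4, Klra8, Klrb1c and Klre1 on 1 each, too few for testing. Itga2 and Klrb1b were above background on no array. Of the 15 CD8 T cell markers 2 rose, among them Lat by 0.27, against 3.81% called higher over all genes. Their sums were 2668 to 2830 in Lck-off and 2619 to 2759 in WT. The part of other cells in the family's difference was not tested.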

How the data were processed

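RNA of 4 Lck-off and 3 WT samples was hybridised to arrays of design 028005. Per the file headers, intensity values were extracted by the authors with Feature Extraction 10.7.3.1; the processed signal is background subtracted and detrended, the mean and local background signals are uncorrected, and probe positions are mm9. The authors' deposited value table is taken as log2 from its values, with column medians of 6.34 to 6.35; its centring and other steps stay unknown. The submitters' processing notes name limma.

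Levels were log2 processed intensity minus each array's 75th percentile over non-control spots, without non-uniform spots. Replicate spots were averaged, and a probe was tested if well above background on 3 arrays or more. Each gene was read from its brightest such probe. The groups were compared with limma 3.58.1 (R 4.3.3, with version 1.17.8 of data.table) over all genes or probes, two-sided, at a Benjamini-Hochberg adjusted p under 0.05. A bound sets the Lck-off mean against, per WT array, the higher of the probe's own signal and the faintest signal above background of any probe. A probe's own detection limit can lie higher than that, so a bound is no strict lower limit. The number of arrays limits precision. The fit was tested on simulated data. Replicate numbers are those of the sample titles; the numbers in the names of the deposited array files differ from them for WT and were not used. Slide row 1 held Lck-off replicates 2 and 3 and WT replicate 3, and row 2 the rest.

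The members and the lists (other family, interferon, DNA sensing, and myeloid, dendritic, B, NK, CD8 and CD4 markers) were chosen with earlier results of these data known. Named were all members and other family genes, Lck, the neighbours within 2 Mb and list genes of smallest p with fixed additions, undetected and defining markers, and the 3 closest profiles per called member. Exo1, Gm16340, Trim56, Samhd1, class II genes, called or shifted markers, sum-leading markers, Slamf6 and the array patterns were singled out after their values were seen. Some genes of these lists are not reported here by name. Alternatives were the background correction, scaling, filter, deposited values, probe averaging, moderation, array weights, blocks, single slide rows and each array left out.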

Additional observations from a re-analysis of the deposited data

Results flagged for a closer look

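Among 25 family probes, the 4 Lck-off arrays were searched for 1 array far from the rest, which chance gives in about 1 of 20 groups, and 2 were found. In the Pyhin1 probe A_55_P1974178, Lck-off replicate 1 read 2.75, below the other Lck-off arrays at 3.03 to 3.08 and above WT at 2.12 to 2.49; its gap to the nearest array was 0.856 of the group's range. In the AI607873 probe A_51_P325281, Lck-off replicate 2 read -5.02, below the others at -4.49 to -4.42, a gap of 0.879 of the range, but this probe was not well above background on any array.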

How the results depend on the processing

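Of the 4 members called (Mnda included), 2 were called with no filter on dim probes, with array weights and with slide row as a block, and 2 to 4 when 1 array was left out. Pyhin1 kept its call in 19 of 21 alternatives and Ifi204 in 18, while Ifi203 kept it in 7 of 21 and Mnda in 6 of 20. Member probes called were 8, against 7.33% of all probes. Of the 8, 2 (of Mnda and Ifi204) passed the filter through Lck-off arrays alone. The count became 3 with no filter and 4 to 9 with 1 array left out. Of the other family genes, 2 were called, 1 with median scaling or no filter and 1 to 4 with 1 array left out. Within slide rows 1 and 2, 0 and 0 members, 0 and 0 member probes, 0 and 0 other family genes, 0 and 0 neighbours, 13 and 0 interferon genes and 0 and 0 DNA sensing genes were called by limma, beside 108 and 0 of all genes, with 2528 and 2714 at an unadjusted p under 0.05; these fits have fewer arrays. The neighbours called in either direction were 12 of 39 tested within 2 Mb and 19 of 182 within 10 Mb (10.4%), against 8.39% of all genes. Of the 12, 9 were the names inside the span and 3 were flanking genes, all called lower. DNA sensing genes called were 6, and 10 with trended and robust moderation. Over all genes 1531 were called, 920 with median scaling, 717 with no filter, and 962 to 1410 with 1 array left out.

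With the replicate block, 1 member, 1 member probe, 0 other family genes, 4 neighbours and 28 interferon genes were called, of 368 over all genes. Same-numbered arrays had correlations of their deviations from the group means of 0.106, 0.049 and -0.009 by the titles' numbers. These low values give no sign of pairing by those numbers but cannot exclude it. The difference between Ifi203 probes A_55_P1966731 and A_55_P1998843, -0.05, was 0.13 with normexp, 0.11 in the deposited table and 0.0285 without Lck-off replicate 3 (-0.129 to 0.0285 with 1 array left out). That between A_55_P1988202 and A_55_P2004507, 0.01, was -0.04 without Lck-off replicate 2 and -0.0588 without WT replicate 1 (-0.0588 to 0.0652 with 1 array left out). The cause of these changes was not tested. Levels near background limit Mnda, Ifi202b and the dimmer Ifi204 probe.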

Other observations

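Slamf6, a lymphocyte receptor gene left of the cluster on chromosome 1, had a probe with an array pattern like that of Aim2; it was singled out after its values were seen. A_52_P507578 read 2.35, 0.91, 1.97 and 1.64 in Lck-off and 1.19, 1.45 and 1.05 in WT, with Lck-off replicate 2 the lowest of all 7 arrays, as in Aim2. Its root mean square difference from the Aim2 profile was 0.34 on the log2 scale. The other Slamf6 probe, A_55_P2182467, read 2.42, 2.41, 2.60 and 2.51 in Lck-off and 2.37, 2.37 and 2.40 in WT, and did not show this.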
